A study of Mus musculus with 6 samples.

Results

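The glucocorticoid receptors and 8 genes that respond to glucocorticoids or to cellular stress were followed in amygdala neuron preparations from stressed mice. The 10 genes were taken by name from the count tables (Nr3c1, Nr3c2, Fkbp5, Tsc22d3, Sgk1, Zbtb16, Klf9, Ddit4, Cdkn1a and Mt1), and all 10 were found among 35976 genes and passed the filter on low counts, which left 13159 genes to test. The sgEgfr group (3 libraries, genotype given as sgEgfrAstro) came from male C57BL/6J mice whose amygdala received an adeno-associated virus that expresses Cas9 in astrocytes under the GfaABC1D promoter, with guides that target Egfr, a growth factor receptor gene. The sgRosa group (3 libraries, genotype given as sgRosa26) came from mice of the same strain and sex with the same astrocyte Cas9 system and guides against Rosa, a control locus; the treatment notes shared by all samples also mention guides in microglia, which neither genotype names. Both groups had more than 2 weeks of expression, 7 days of restraint stress, followed by a day of fear conditioning and by extinction sessions over 3 days, so neither is an unstressed baseline, and the age of the mice is not given in the labels. The cells were enriched as neurons with a magnetic kit, whereas Cas9 was directed to astrocytes. Whether the replicates were different animals is not stated in the labels, and the p-values cover only library-to-library spread, which may be technical.

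Glucocorticoids (corticosterone in mice) act on neurons through a pair of nuclear receptors: the mineralocorticoid receptor, encoded by Nr3c2, which binds the hormone with high affinity, and the glucocorticoid receptor, encoded by Nr3c1, which is engaged as hormone levels climb during stress. The unbound glucocorticoid receptor sits in a chaperone complex, and the hormone-bound receptor moves to the nucleus and activates genes such as Fkbp5, Tsc22d3, Sgk1, Zbtb16 and Klf9. Fkbp5 encodes a co-chaperone that lowers the receptor's affinity for hormone, which closes a feedback loop. Ddit4, Cdkn1a and Mt1 also respond to energy shortage, DNA damage and metals, so they are not read-outs of the hormone alone.

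Total counts were 4849404, 4352966 and 2520426 in sgEgfr replicates 1, 2 and 3, and 4144701, 2348897 and 10152812 in sgRosa replicates 1, 2 and 3. Counts of the 10 genes ranged from 32 to 2029 per library, above the floor of 3 counts, which corresponded to 0.270 to 1.25 CPM (counts scaled to a common library size, with TMM factors) and covers counting error only. The targeted gene Egfr had 6, 18 and 6 counts in sgEgfr libraries and 1, 26 and 23 counts in sgRosa libraries, too few to check the knockdown, which was directed to another cell type. None of 14 pan-neuronal markers was at 0 in any library, but oligodendrocyte markers were higher per length in every library: the mean over the marker list was 370 to 999 CPM per kb of exon in sgEgfr and 436 to 1329 in sgRosa, against 39.4 to 68.8 in sgEgfr and 27.9 to 75.1 in sgRosa for pan-neuronal markers. The preparations therefore held RNA of several cell types. Choroid plexus markers summed to 2280.4 CPM in sgEgfr replicate 1 and 3518 CPM in sgRosa replicate 3, and to between 9.74 and 46.2 CPM in the other 4 libraries. In such mixed samples, fewer cells of a type and less RNA per cell cannot be told apart.

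In the edgeR quasi-likelihood fit, with p-values adjusted by Benjamini-Hochberg over all 13159 genes, 0 of the 10 genes passed an adjusted p of 0.05, where 0% of all genes passed. Of the 10 genes, 9 had a positive log2 fold change (sgEgfr over sgRosa), with a median of 0.32, beside 46.3% of all genes tested and a median of -0.038. By limma-voom, 6 of the 10 were positive, with a median of 0.11, and without both libraries with choroid plexus RNA 7 were, with a median of 0.35. At an unadjusted p under 0.05 there were 2 of the 10 higher in sgEgfr (Zbtb16 and Cdkn1a) and 0 lower, where 3.23% of all genes were higher and 2.93% lower, 6.16% in all. The groups did not overlap for 3 of the 10 (Nr3c1, Zbtb16 and Klf9), each with sgEgfr higher, where 5.80% of all genes were separated in that direction and 7.60% in the other, which held 0 of the 10. The genes were chosen together and share libraries, so these counts describe them and are no test of the group.

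**Figure D1:**
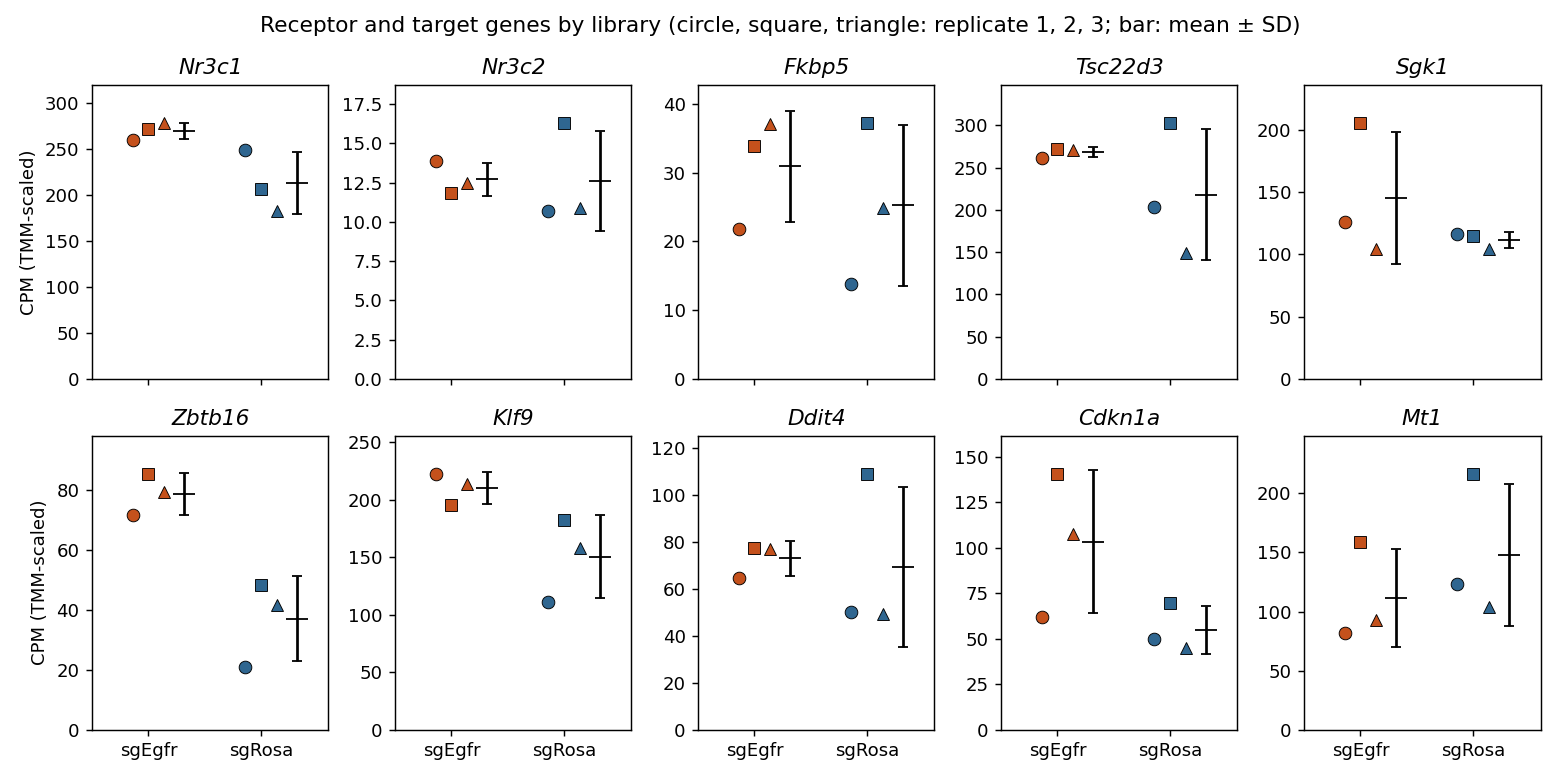
TMM-scaled CPM of each gene (linear axis from 0) in the 3 sgEgfr libraries (orange, left) and the 3 sgRosa libraries (blue, right); bars give the mean ± SD. Zbtb16 lies between 71.7 and 85.5 CPM in sgEgfr, above the highest sgRosa library at 48.5 CPM.

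The receptors differed in how closely the groups lay. Nr3c1, the glucocorticoid receptor gene, was at 260.0, 271 and 278 CPM in sgEgfr replicates 1, 2 and 3, and at 249, 206 and 183 CPM in sgRosa replicates 1, 2 and 3. The groups did not overlap, with sgRosa replicate 1 close under the lowest sgEgfr library, and the mean of 269.6 ± 9.02 CPM in sgEgfr against 213 ± 33.7 CPM in sgRosa (SD, n = 3 each) gave a log2 fold change of 0.34 (SE 0.24, 95% interval -0.21 to 0.89, edgeR adjusted p = 0.808). The Nr3c1 value was 0.24 without sgRosa replicate 3 and 0.49 without sgRosa replicate 1. Nr3c2, the mineralocorticoid receptor gene, was at 13.9, 11.8 and 12.5 CPM in sgEgfr and at 10.7, 16.3 and 10.9 CPM in sgRosa. Its groups overlapped, with the sgEgfr libraries inside the sgRosa range, and the log2 fold change was 0.024 (SE 0.28, 95% interval -0.62 to 0.66, adjusted p = 0.990). The sign of that value turned under 6 of 18 alternatives. Part of an Nr3c2 exon region overlaps Gm10649 on the opposite strand over 247 bp. No source states whether strand was used in counting, so it is not known how reads there were assigned.

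The balance of the receptors was taken within each library as the ratio of Nr3c1 to Nr3c2 counts, which is independent of scaling. The ratio was 18.8, 22.9 and 22.3 in sgEgfr libraries and 23.3, 12.7 and 16.8 in sgRosa libraries. The sgRosa libraries spanned a wider range that held all 3 sgEgfr libraries. On the log2 scale (Nr3c2 over Nr3c1, 1 count added) the balance averaged -4.38 ± 0.15 in sgEgfr and -4.06 ± 0.44 in sgRosa (SD, n = 3 each), a difference of -0.31 that lay within the spread (two-sided exact permutation test, p = 0.4; 3 against 3 libraries cannot go below 0.1).

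Fkbp5 (chromosome 17, 28399094 to 28517527, minus strand, mm10), the receptor's feedback co-chaperone, was at 21.8, 33.9 and 37.0 CPM in sgEgfr and at 13.8, 37.2 and 24.8 CPM in sgRosa. The groups overlapped over most of their range, with sgRosa replicate 1 lowest and sgRosa replicate 2 highest of all 6 libraries. The means of 30.9 ± 8.07 CPM in sgEgfr and 25.3 ± 11.7 CPM in sgRosa (SD, n = 3 each) gave a log2 fold change of 0.29 (SE 0.38, 95% interval -0.59 to 1.18, adjusted p = 0.892). Without sgRosa replicate 1 it was 0.017, without sgRosa replicate 2 it was 0.71, and by limma-voom it turned to -0.049.

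Tsc22d3, also called GILZ, encodes a leucine zipper protein that carries anti-inflammatory effects of glucocorticoids. It was at 261, 272 and 271 CPM in sgEgfr and at 203, 302 and 149 CPM in sgRosa. The sgEgfr libraries were nearly equal, while the sgRosa libraries lay on both sides of them. The log2 fold change was 0.30 (SE 0.30, 95% interval -0.40 to 1.00, adjusted p = 0.863), with 0.63 when sgRosa replicate 2 was left out, 0.085 when sgRosa replicate 3 was, and 0.023 by limma-voom. Sgk1, a kinase gene induced rapidly by corticosteroids in neurons and oligodendrocytes, was at 126, 206 and 104 CPM in sgEgfr and at 116, 114 and 104 CPM in sgRosa. Here the sgRosa libraries agreed closely and sgEgfr replicate 2 stood alone above the rest. The log2 fold change of 0.38 (SE 0.29, 95% interval -0.30 to 1.06, adjusted p = 0.821) became 0.064 without sgEgfr replicate 2 and 0.59 without sgEgfr replicate 3.

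The glucocorticoid receptor binds as a dimer to a palindrome of AGAACA repeats, and the sequences before the start sites of the targets were searched for it to show which windows hold the letters. RefSeq promoter windows (GRCm38.p6, 250 bases before to 50 after a start) were found for 8 of the 10 genes, 16 windows in all, and Nr3c1 and Zbtb16 were not among them. The full palindrome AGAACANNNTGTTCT, which contains AGAACA on each strand, was found in 1 of these windows, an internal start of Sgk1 at chr10:21993640-21993939 (plus strand), where its first base lies 189 bases before the start. Of 32851 mouse windows of this length, 3 held it (0.0091%). AGAACA on either strand was found in 4 of the 16 windows, all of Sgk1 or Tsc22d3, and in 19.0% of all windows. Both sequences are printed 5′ to 3′, with AGAACA on either strand and the palindrome in capitals, to show where the receptor's recognition letters lie in genes whose groups overlapped; the Tsc22d3 window is chrX:140600473-140600772 (minus strand).
Sgk1: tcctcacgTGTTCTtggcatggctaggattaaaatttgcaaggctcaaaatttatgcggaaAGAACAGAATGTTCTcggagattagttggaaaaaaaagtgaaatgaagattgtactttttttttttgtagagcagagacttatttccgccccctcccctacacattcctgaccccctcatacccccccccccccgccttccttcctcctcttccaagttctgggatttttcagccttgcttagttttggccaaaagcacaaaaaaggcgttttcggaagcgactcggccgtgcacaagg
Tsc22d3: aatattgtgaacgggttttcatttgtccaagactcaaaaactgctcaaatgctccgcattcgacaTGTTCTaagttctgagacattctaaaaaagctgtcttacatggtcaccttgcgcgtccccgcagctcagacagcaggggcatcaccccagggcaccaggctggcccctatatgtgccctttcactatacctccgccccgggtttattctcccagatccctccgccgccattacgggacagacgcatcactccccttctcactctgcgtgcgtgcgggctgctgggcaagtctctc
The windows of Nr3c2, Fkbp5, Klf9, Ddit4, Cdkn1a and Mt1 held no AGAACA, which says only that these letters are not within them.

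Zbtb16, Klf9 and Cdkn1a had the smallest p-values of the 10 genes, and none passed. Zbtb16 (chromosome 9, 48654297 to 48836222, minus strand), which encodes the zinc finger repressor PLZF and is a sensitive glucocorticoid target in many cell types, was at 71.7, 85.5 and 79.5 CPM in sgEgfr and at 21.1, 48.5 and 41.7 CPM in sgRosa. The groups were well apart, with sgRosa replicate 1 the lowest. The means of 78.9 ± 6.92 CPM in sgEgfr and 37.1 ± 14.2 CPM in sgRosa (SD, n = 3 each) gave a log2 fold change of 1.09 (2.13-fold, SE 0.32, 95% interval 0.35 to 1.83 before adjustment). Its unadjusted p ranked 96th of 13159 genes by edgeR, and the adjusted p was 0.781 (0.142 to 0.999 over all alternatives).

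Klf9 (chromosome 19, 23141226 to 23168134, plus strand), a Krüppel-like transcription factor gene induced by corticosteroids and thyroid hormone in neurons, was at 222, 195 and 214 CPM in sgEgfr and at 111, 183 and 158 CPM in sgRosa. The lowest sgEgfr library lay just above sgRosa replicate 2. The means were 210.5 ± 13.7 CPM in sgEgfr and 151 ± 36.1 CPM in sgRosa (SD, n = 3 each), with a log2 fold change of 0.48 (SE 0.26, 95% interval -0.12 to 1.08, adjusted p = 0.783). The Klf9 value was 0.33 without sgRosa replicate 1 and 0.68 without sgRosa replicate 2. Cdkn1a (chromosome 17, 29090976 to 29100727, plus strand), which encodes the cell cycle inhibitor p21, a target of p53 and of several stress pathways, was at 62.1, 140.4 and 108 CPM in sgEgfr and at 49.8, 69.8 and 45.0 CPM in sgRosa. The groups overlapped, since sgEgfr replicate 1 lay below sgRosa replicate 2. The log2 fold change was 0.92 (1.89-fold, SE 0.34, 95% interval 0.13 to 1.70 before adjustment, adjusted p = 0.781), with 0.65 without sgEgfr replicate 2 and 0.44 by limma-voom. Cdkn1a exons overlap AC167363.2 on the opposite strand over 273 bp, where it is not known how reads were assigned.

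**Figure D2:**
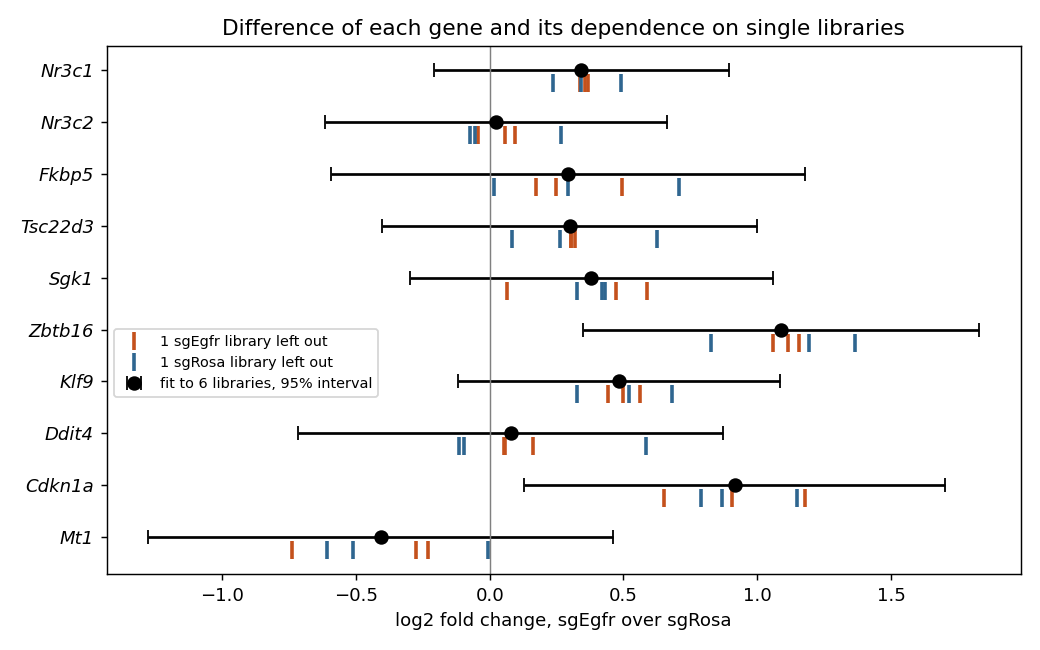
Log2 fold change of each gene, sgEgfr over sgRosa, from edgeR with its 95% interval before adjustment (black), and the value with 1 library left out (ticks; orange for an sgEgfr library, blue for an sgRosa library). Zbtb16 stays between 0.83 and 1.37, whereas Ddit4 runs from -0.12 to 0.59 and the value for Mt1 is -0.0057 without sgRosa replicate 2.

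Ddit4 and Mt1 had values near 0 or of another sign when single sgRosa libraries were left out. Ddit4, which encodes REDD1, an inhibitor of mTOR complex 1 induced by glucocorticoids, hypoxia and energy shortage, was at 64.6, 77.4 and 77.2 CPM in sgEgfr and at 50.1, 109 and 49.1 CPM in sgRosa. One sgRosa library lay above and the other two below all 3 sgEgfr libraries. The log2 fold change was 0.079 (SE 0.34, 95% interval -0.71 to 0.87, adjusted p = 0.970). It was 0.59 without sgRosa replicate 2, but -0.096 when sgRosa replicate 1 was left out and -0.12 when sgRosa replicate 3 was. Mt1, a metallothionein gene that binds zinc and copper and is induced by metals and glucocorticoids, was at 82.1, 159 and 92.7 CPM in sgEgfr and at 123, 216 and 104 CPM in sgRosa. Replicate 2 was the highest library of each group, and the groups overlapped. Mt1 was the only one of the 10 with a negative log2 fold change (-0.41, SE 0.37, 95% interval -1.28 to 0.46, adjusted p = 0.846), which was -0.0057 without sgRosa replicate 2, -0.039 with pan-neuronal marker level as a covariate and -0.91 by limma-voom. How reads shared by Mt1 and its near copy Mt2 were counted was not given.

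The Mt1 window, chr8:94178839-94179138 (plus strand), is printed because it held 3 matches to the metal response element core, searched on both strands as TGCACNC or TGCGCNC (capitals); 25.7% of all windows held at least 1 match and 1.97% at least 3.
Mt1: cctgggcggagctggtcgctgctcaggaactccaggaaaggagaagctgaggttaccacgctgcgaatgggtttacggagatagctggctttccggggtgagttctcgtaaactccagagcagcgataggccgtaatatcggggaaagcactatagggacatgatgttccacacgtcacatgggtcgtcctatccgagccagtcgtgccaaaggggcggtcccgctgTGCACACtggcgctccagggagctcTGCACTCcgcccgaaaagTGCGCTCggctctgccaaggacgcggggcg
Single matches were found in the windows of Nr3c2, Ddit4 and another start of Sgk1.

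Each of the 6 libraries was the highest or the lowest for at least 1 of the genes. sgRosa replicate 2 was the highest of all 6 libraries for 5 of the 10 genes (Nr3c2, Fkbp5, Tsc22d3, Ddit4 and Mt1), where it was highest for 16.1% of all genes tested. In the same library the sum of 13 immediate early and heat shock genes, listed as a dissociation response, reached 7594 CPM. The sums were 2289.7 to 3380.1 CPM in sgEgfr libraries and 2352 and 3623 CPM in the other sgRosa libraries. Junb (2513 CPM) and Jun (1329 CPM) were highest in sgRosa replicate 2, whereas Fos (675 CPM) was close to sgRosa replicate 1 (667 CPM). The heat shock genes Hspa1a and Hspa1b were highest in sgEgfr replicate 2 instead (324 and 39.9 CPM, against 296 and 24.6 CPM). The part of the 13 genes in the levels of the 5 genes was not tested. Without sgRosa replicate 2 the median log2 fold change of the 10 genes was 0.61, with 9 of 10 positive. sgRosa replicate 1 was lowest for Nr3c2, Fkbp5, Zbtb16 and Klf9 (26.7% of all genes), and without it the median was 0.29, with 7 of 10 positive. sgRosa replicate 3 was lowest for Nr3c1, Tsc22d3, Sgk1, Ddit4 and Cdkn1a (18.7% of all genes), and without it the median was 0.27, with 7 of 10 positive. sgEgfr replicate 2 was highest for Sgk1, Zbtb16 and Cdkn1a (12.6% of all genes) and also had the highest sums of 10 microglial markers (34.7 to 482 CPM in sgEgfr and 65.2 to 162 CPM in sgRosa) and of 5 red blood cell markers (586 to 4047 CPM in sgEgfr and 403 to 1069.8 CPM in sgRosa), none of them at 0; all 10 microglial and all 5 red blood cell markers had a higher mean in sgEgfr, and their part was not tested. The highest sums of astrocyte markers (1724 CPM) and of 8 oligodendrocyte precursor markers were also in sgEgfr replicate 2. The precursor markers summed to 508 to 1314 CPM in sgEgfr and 358 to 1093 CPM in sgRosa, and their part was not tested. For Zbtb16, the log2 fold change was 1.06 without sgEgfr replicate 2.

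**Figure D3:**
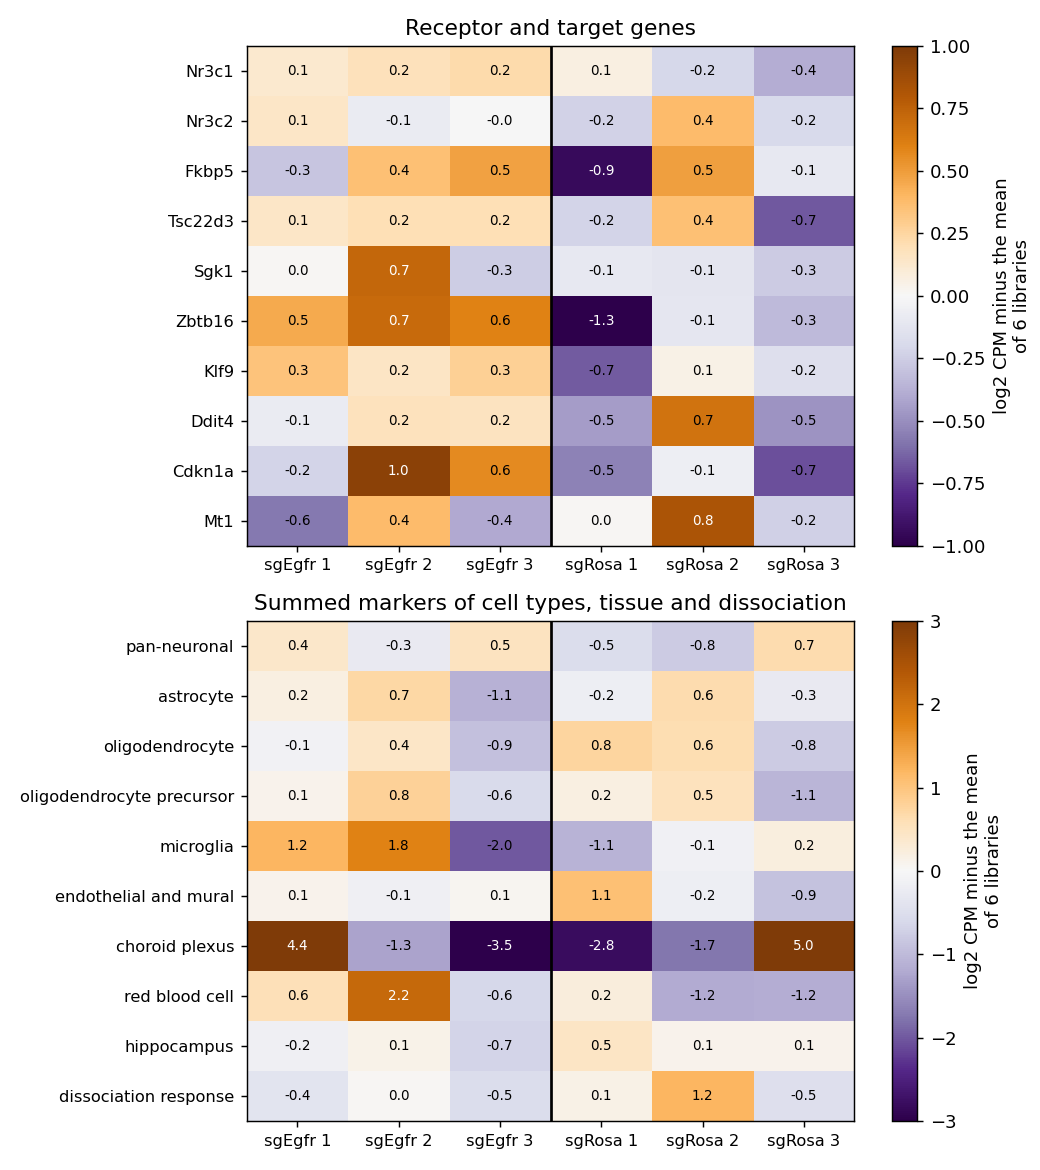
Log2 CPM of each gene (upper panel) and of each summed marker list (lower panel) in the 3 sgEgfr libraries (left of the black line) and the 3 sgRosa libraries (right), as the difference from the mean of the 6 libraries; the panels have different colour ranges, beyond which the colour no longer deepens. sgRosa replicate 2 is highest for 5 genes of the upper panel and for the summed dissociation response list in the lower panel.

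Markers of cell types also differed in mean. All 14 pan-neuronal markers had a higher mean in sgEgfr (sums of 3546 to 6097 CPM in sgEgfr and 2464 to 6719 CPM in sgRosa) and all 10 oligodendrocyte markers a lower mean (sums of 22648 to 57947 CPM in sgEgfr and 24623 to 72656 CPM in sgRosa), with overlapping groups for both sums. With pan-neuronal marker level as a covariate the log2 fold changes were 0.45 for Nr3c1, 1.04 for Zbtb16, 0.43 for Klf9 and 1.14 for Cdkn1a, and with oligodendrocyte marker level they were 0.45, 0.98, 0.39 and 1.05 for the same genes in that order. Among the other genes, with the pan-neuronal covariate Tsc22d3 was at 0.60 (unadjusted p under 0.05, edgeR adjusted p = 0.454), Sgk1 at 0.55, Ddit4 at 0.35, Fkbp5 at 0.31 and Nr3c2 at 0.11. With the oligodendrocyte covariate Tsc22d3 was at 0.47, Sgk1 at 0.55, Ddit4 at 0.17, Fkbp5 at 0.19, Nr3c2 at 0.054 and Mt1 at -0.16. Without both libraries with choroid plexus RNA the values were 0.27 for Nr3c1, 1.26 for Zbtb16, 0.48 for Klf9 and 1.06 for Cdkn1a. Astrocyte markers summed to 480 to 1724 CPM in sgEgfr and 869 to 1623 CPM in sgRosa, with a higher mean in sgEgfr for 2 of 10. Endothelial and mural markers summed to 1443, 1220 and 1416 CPM in sgEgfr and to 2812, 1198 and 727 CPM in sgRosa, with a lower mean in sgEgfr for 9 of 10. By these sums sgRosa replicate 1 was highest, and the other sgRosa libraries lay below every sgEgfr library. Both cell types respond to glucocorticoids, and their part was not tested. The 8 hippocampal markers, which bear on the tissue taken, averaged 1.62, 1.94 and 1.24 CPM per kb in sgEgfr libraries and 2.39, 2.28 and 2.43 CPM per kb in sgRosa libraries. The groups did not overlap on that scale, although the summed CPM did (60.0 to 104 CPM in sgEgfr and 102 to 130.5 CPM in sgRosa). Prox1 (15.6 to 93.6 CPM) and Wipf3 (17.5 to 52.5 CPM) had the highest levels of the list. The 2 of the 8 separated downward, Spink8 and Fibcd1, were at 0.78 to 1.92 CPM in sgEgfr, near the floor of 3 counts. Lct was at 0 in 1 library, and the part of these markers in the results was not tested.

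The spread within groups was smaller in sgEgfr for 8 of the 10 genes, with a median coefficient of variation of 9.40% in sgEgfr and 30.4% in sgRosa. Over all genes tested, 73.6% also had the smaller coefficient in sgEgfr (median 19.8% in sgEgfr and 32.2% in sgRosa), so the 8 of 10 lie near the background. The exceptions were Sgk1 and Cdkn1a.

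Levels were compared between genes per kb of exon, over all 6 libraries. Mt1 was highest at 104 ± 40.4 CPM per kb (SD, n = 6), followed by Tsc22d3 at 56.0 ± 13.0, Ddit4 at 40.6 ± 12.7, Klf9 at 37.5 ± 8.50, Nr3c1 at 31.4 ± 4.97, Sgk1 at 26.2 ± 7.87 and Cdkn1a at 22.3 ± 10.5 CPM per kb. Zbtb16 followed at 11.0 ± 4.73, then Fkbp5 at 2.97 ± 1.00 and Nr3c2 at 1.96 ± 0.33 CPM per kb. The ranges of neighbours in this order overlapped in each case except between Zbtb16 and Fkbp5. Within libraries, Mt1 exceeded Tsc22d3, Tsc22d3 exceeded Ddit4 and Cdkn1a exceeded Zbtb16 in 6 of 6, whereas Ddit4 exceeded Klf9 in 3 of 6.

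Among the genes with the profile most like that of Nr3c1 over the 6 libraries, by the root mean square distance of log2 CPM centred on each gene's mean, were Rapgef6 (0.046) and Trps1 (0.052), where the median distance of all genes was 0.45. Those most like Fkbp5 were Rcc1 (0.058), Galnt13 (0.11) and U2af2 (0.12), against a median of 0.64. These genes were picked as the nearest, so their short distances follow from that choice and are no test of shared regulation.

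Genes around the receptors were taken from 11 lists, and by edgeR 0 passed the test over all genes. Beside the counts of each list below stand 46.3% of all genes tested that were positive, 5.80% separated upward and 7.60% downward. Receptor coregulators, which the bound receptor recruits to chromatin, were positive in 10 of 12 (median log2 fold change 0.26), and 3 of them were separated upward. These were the corepressor gene Nrip1 (0.99, SE 0.23, adjusted p = 0.781), the Mediator gene Med1 (0.81, SE 0.30, adjusted p = 0.781) and the acetyltransferase gene Crebbp (0.65, SE 0.25, adjusted p = 0.781); Hdac3 was separated downward (-0.22). Receptor chaperones were positive in 5 of 10 (median -0.0050), with the p23 co-chaperone gene Ptges3 at 0.69 (0.44 without sgRosa replicate 1 but 1.14 when sgRosa replicate 2 was left out) and Fkbp4, which encodes a co-chaperone that favours receptor transport, at -0.41 (-0.26 without sgRosa replicate 1); the chaperone gene Hspa8 was separated downward (-0.34). Of 20 other glucocorticoid targets 19 were tested, 9 positive and 10 negative (median -0.083), and none was separated. Their smallest p-values were those of the phosphatase gene Dusp1 (-0.96, SE 0.39) and the clock gene Per1 (0.60, SE 0.28), which lay in opposite directions; Dusp1 was at 317, 325 and 220.2 CPM in sgEgfr and at 794, 582 and 302 CPM in sgRosa. Dusp1 was at -0.61 without sgRosa replicate 1 and at -0.40 with the pan-neuronal covariate.

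Relatives of the target genes were mixed as well. Among 11 TSC22 and KLF genes, 6 were positive (median 0.25), and Klf13 (0.86, SE 0.31, edgeR adjusted p = 0.781) and Klf2 (0.84, SE 0.28, adjusted p = 0.781) were separated upward; Klf13, a close relative of Klf9, passed by DESeq2 (adjusted p = 0.0494). Of 12 p53 targets, 4 were positive (median -0.15), with Phlda3 at -0.65 (-0.43 without sgRosa replicate 1) and the apoptosis gene Bax separated downward at -0.32, beside 0.92 for Cdkn1a. Of 12 tested genes of the integrated stress response and hypoxia, 6 were positive (median 0.044), with Ddit3 separated downward at -0.51 and the mitophagy receptor gene Bnip3 at -0.35; without sgRosa replicate 1 these were -0.15 and -0.068. Among 12 genes near Ddit4 and Sgk1 in the mTOR pathway, 6 were positive (median 0.046), with the smallest p for Sgk2 (-1.50, SE 0.63) and Rictor (0.52, SE 0.25, separated upward). Sgk2 was at -0.70 without sgRosa replicate 1, -0.44 with the pan-neuronal covariate and -0.47 with the oligodendrocyte covariate. Metallothionein and zinc genes were positive in 4 of 6 (median 0.078), with the zinc exporter gene Slc30a1 at 0.51 (1.01 without sgRosa replicate 1 but 0.23 when sgRosa replicate 3 was left out) and the metal-sensing factor gene Mtf1 separated upward at 0.26 (0.14 without sgRosa replicate 3).

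Hormone supply and related receptors were measured less fully. Of 9 genes of corticosteroid metabolism 6 were tested, 5 of them negative (median -0.50), with the steroid reductase gene Srd5a1 at -0.57 (-0.97 without sgEgfr replicate 2 and -0.27 without sgEgfr replicate 3) and Hsd11b1, whose enzyme regenerates active corticosterone, at -0.87 from few reads (means of 2.7 CPM in sgEgfr and 4.85 CPM in sgRosa); Hsd11b1 was at -1.33 without sgRosa replicate 1 and -0.38 without sgRosa replicate 3. Of 13 genes of CRH and related stress peptides 5 passed the filter, 4 of them positive (median 0.28), with the receptor gene Crhr1 at 0.40 and the binding protein gene Crhbp at -0.37. With single libraries left out, Crhr1 ranged from 0.049 (sgEgfr replicate 3) to 1.37 (sgRosa replicate 3) and Crhbp from -0.70 (sgEgfr replicate 3) to -0.11 (sgRosa replicate 3), and Crhbp was at -0.0037 by limma-voom. Crh itself averaged 1.39 CPM in sgEgfr and 1.65 CPM in sgRosa and was not tested. The peptide genes Avp and Oxt, also not tested, stood apart in replicate 2 of each group. Avp was at 0.64, 96.6 and 0 CPM in sgEgfr and at 0.28, 28.8 and 0.090 CPM in sgRosa, and Oxt was at 0, 25.9 and 0 CPM in sgEgfr and at 0, 10.9 and 0.18 CPM in sgRosa. These libraries also held 8 of the 10 highest values of the receptor and target genes, 3 in sgEgfr replicate 2 and 5 in sgRosa replicate 2. Of all genes tested, 12.6% were highest in the former and 16.1% in the latter. The part of the tissue taken in these values was not tested. Of 7 other steroid receptors 5 were tested, 4 of them positive (median 0.36). The progesterone receptor gene Pgr was at 0.81 (0.57 without sgEgfr replicate 1 and 1.41 without sgRosa replicate 3). The oestrogen receptor gene Esr1 was at 0.64 (0.32 without sgRosa replicate 1 and 1.22 without sgRosa replicate 3). With the pan-neuronal covariate, the values were 0.28 for Pgr, 0.27 for Esr1, -0.21 for Srd5a1, -0.62 for Crhbp, -0.21 for Fkbp4, -0.20 for Phlda3, -0.31 for Ddit3 and 0.92 for Slc30a1.

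**Figure D4:**
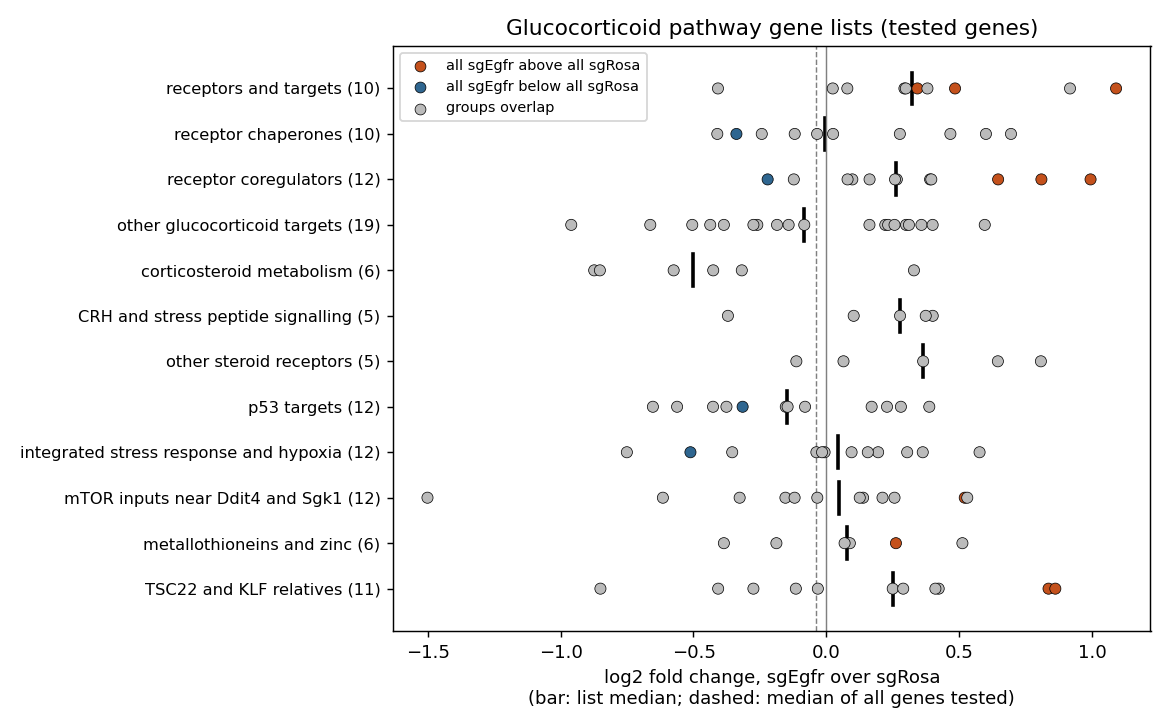
Log2 fold change, sgEgfr over sgRosa, of every tested gene of the 10 receptor and target genes (top) and of 11 pathway lists, with the number tested in brackets; bars are list medians and the dashed line is the median of all genes tested (-0.038). Separated genes are coloured: 3 of the 10 genes, 3 coregulators, 2 KLF genes, Rictor and Mtf1 lie on the right in orange, and Hspa8, Hdac3, Bax and Ddit3 on the left in blue. Of all genes tested, 5.80% were separated upward and 7.60% downward.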

How the data were processed

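Libraries were analysed as raw read counts per gene, deposited by the authors without normalization, 1 table per library and 1 of the whole series; the 6 library columns were identical in both, and 3 further columns that match no label were not used. The submitters' processing notes name STAR 2.7.5c, fastp 0.23.2, MultiQC 1.11, featureCounts 2.0.1, FastQC 0.11.9, edgeR 3.42.4 and the mm10 build; options, annotation and strand use are not given in the sources used here. Papain digestion, magnetic neuron isolation and an input of 5 ng of RNA are recorded per the labels' protocols. PCR duplicates cannot be told from molecules without molecular identifiers.

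The fit used edgeR 4.0.16 in R 4.3.3: filterByExpr (minimum count 10, minimum total 15), TMM scaling, robust dispersions, quasi-likelihood test, and Benjamini-Hochberg adjustment over 13159 genes at 0.05. Standard errors come from the fold change and F statistic. The common biological coefficient of variation was 0.36. The procedure was tested on simulated data. All pairs of libraries differed beyond sampling noise (lowest chi-square per degree of freedom 10.4). Profile distances used log2 CPM with a prior count of 2, and the 3 nearest genes were taken for Nr3c1 and for Fkbp5; 1 of them is not reported here. Levels per kb used the exon union of GENCODE M21, on GRCm38, the assembly that mm10 names; the promoter windows are RefSeq's on GRCm38.p6.

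The members, pathway lists and marker lists were chosen with earlier results of these data known. All 10 genes are named; the rule allowed up to 3 genes of each pathway list, taken by unadjusted p. After the values were seen this was narrowed to 2, with the other where its unadjusted p was under 0.05; Hdac3, Hspa8, Crh, Avp and Oxt were named after their values were seen. Each of the 220 listed symbols was present in the tables. Alternatives were scaling by RLE, upper quartile or library size, leaving genes unfiltered or filtering at 1 CPM in 3 libraries and a mean count of 20, DESeq2 1.42.0, limma-voom with quality weights (limma 3.58.1), the legacy fit, a replicate block, marker covariates and left-out libraries.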

Additional observations from a re-analysis of the deposited data

How the results depend on the processing

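No alternative brought any of the 10 genes past the threshold; the smallest adjusted p was 0.142, for Zbtb16 without sgRosa replicate 3. Over 18 alternatives, 7 of the 10 genes kept their direction in every one. Nr3c2 turned to -0.0097 with upper-quartile scaling, -0.048 by limma-voom, -0.14 without both libraries with choroid plexus RNA, and to -0.045, -0.054 and -0.073 when sgEgfr replicate 1, sgRosa replicate 1 or sgRosa replicate 3 was left out; with single libraries left out it ranged from -0.073 to 0.27. Ddit4 turned to -0.28 by limma-voom, -0.033 without both libraries with choroid plexus RNA, and ranged from -0.12 to 0.59 with single libraries left out (-0.096 for sgRosa replicate 1). Fkbp5 turned to -0.049 by limma-voom. Of 411 values of 23 named pathway genes, 409 kept their direction, though not their size, as given beside some of the genes. With single libraries left out, Nrip1 ranged from 0.84 to 1.10, Med1 from 0.57 to 1.02, Crebbp from 0.56 to 0.73 and Per1 from 0.43 to 0.80. By limma-voom Per1 was at 0.30. Crhr1 turned to -0.15 with the pan-neuronal covariate and -0.13 with the oligodendrocyte covariate. The cause was not tested. Over all genes, DESeq2 called 31 higher and 2 lower, none of them among the 10, with an undefined adjusted p for 5114 genes, Nr3c2 included; edgeR called 0 (811 at an unadjusted p under 0.05) and limma-voom 0 (1978 at an unadjusted p under 0.05).

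Deviations of same-numbered libraries from their group means correlated at -0.031, 0.48 and 0.28 for replicates 1, 2 and 3. Replicates 2 and 3 of sgEgfr correlated best with their own number, and sgEgfr replicate 1 with sgRosa replicate 3 (0.21). These correlations cannot decide whether the number marks pairs or a shared batch. The replicate block gave 0 called genes and log2 fold changes of 1.16 for Zbtb16, 0.86 for Cdkn1a and 0.35 for Nr3c1. For the receptor balance, the difference paired by replicate number was -0.31 (exact sign-flip test, p = 0.5, where 3 pairs are too few for a p under 0.05). With single libraries left out, the balance difference ranged from -0.54 to -0.097. Depth limits Nr3c2 most, at 32 to 121 counts per library.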
